A study of Homo sapiens with 48 samples.

Results

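The endoplasmic reticulum (ER) chaperone and unfolded protein response (UPR) genes HSPA5, HSP90B1, PDIA3, PDIA4, PDIA6, CALR, CANX, DNAJB9, HERPUD1 and SDF2L1 were followed through depletion of 2 subunits of the translation factor eIF2B in SW480 cells, an established human APC-mutant colorectal cancer (CRC) line. The genes were taken by symbol, and all 10 are among the 10836 genes present in both the ribosome-protected fragment (RPF) table and the total cytoplasmic RNA table. Each line is a selected pool of SW480 cells carrying a doxycycline (DOX)-inducible shRNA, either the non-targeting shCTRL, shEIF2B1 against eIF2Bα or shEIF2B4 against eIF2Bδ. Cells received DMSO (-DOX) or DOX at 1 µg/ml (+DOX) over 5 days, in 4 replicates run in separate weeks, which gave 6 groups, 24 lysates and 48 libraries. All values are regularized log2 values, the depth behind them is unknown, and p-values measure the spread between weekly repeats of 1 pool per shRNA. Fewer cells of a kind and less RNA per cell cannot be told apart in such bulk lysates.

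The UPR restores protein folding in the ER through 3 sensors. ATF6 and IRE1 (ERN1), which splices XBP1 mRNA, raise transcription of chaperones, foldases and degradation factors. PERK instead phosphorylates eIF2α, the step that the integrated stress response (ISR) shares with other eIF2α kinases, and so favors translation of ATF4 and its target CHOP (DDIT3). HSPA5 (BiP), the Hsp70 chaperone of the ER lumen, binds all 3 sensors and is the classical readout of the ATF6 branch. Loss of eIF2B activity acts downstream of eIF2α and can engage ATF4 without a folding defect. The question put to the data was whether the stress response after eIF2B depletion came with induction of ER chaperones.

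The promoters of most of these genes hold letters of elements through which ATF6 and XBP1 act, and the matches are shown because they separate the genes by the letters in front of them. RefSeq windows on GRCh38.p14, from 250 bases before to 50 after each annotated start, were found for 9 of the 10 genes. PDIA3 had no entry. Both strands were searched for the ER stress response element (ERSE), which is bound by NF-Y and ATF6 and was written as CCAAT and CCACG with any 9 bases between them. It was present in 5 of the 9 genes and in 0.162% of the 9887 measured genes with a window. The matches lie at chr9:125241391-125241409 for HSPA5, chr12:103930216-103930234 and chr12:103930321-103930339 for HSP90B1, chr2:10812853-10812871 for PDIA6, chr19:12938384-12938402 for CALR and chr5:179698778-179698796 for CANX. They are printed 5′ to 3′ on the strand of the motif, with its fixed letters in capitals.
HSPA5: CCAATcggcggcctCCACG
HSP90B1, upstream match: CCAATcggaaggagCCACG
HSP90B1, downstream match: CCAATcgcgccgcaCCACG
PDIA6: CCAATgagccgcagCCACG
CALR: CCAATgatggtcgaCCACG
CANX: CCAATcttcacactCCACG

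The shorter ERSE-II, ATTGG and CCACG with any 1 base between them, was found in HERPUD1 at chr16:56932025-56932035 and in SDF2L1 at chr22:21642114-21642124, against 0.142% of genes. HERPUD1 was the one gene of the 9 whose window also held the C/EBP-ATF response element (CARE), TTGCATCA, the composite site used by ATF4. It lies at chr16:56931966-56931973, starting 176 bases before the RefSeq start, and the motif was found in 0.738% of genes. The core of the UPR element, TGACGTGG, was found in 1.21% of genes and in none of the 9. The windows of PDIA4 and DNAJB9 held none of these motifs. A match of letters is a description and says nothing of occupancy in these cells.
HERPUD1, ERSE-II: ATTGGgCCACG
SDF2L1, ERSE-II: ATTGGtCCACG
HERPUD1, CARE: TTGCATCA

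For each gene the effect of DOX in a knockdown line was corrected by subtracting the effect of DOX in shCTRL, on the log2 scale, and this response was fitted by limma with the week as a block. Calls were made where the Benjamini-Hochberg adjusted p, over all genes of the table, was under 0.1. The counts of calls in RPFs moved with single replicates. After shEIF2B4 307 genes were called, 1615 without replicate 1 and 77, 66 and 43 without replicate 2, 3 or 4, and after shEIF2B1 3038 were called, and 1529 to 2714 with 1 replicate left out. EIF2B1 fell by 0.67 in total RNA after shEIF2B1 (limma adjusted p = 0.0263), and EIF2B4 fell by 0.49 after shEIF2B4 (limma adjusted p = 0.0634). In RPFs EIF2B1 fell by 0.53 (limma adjusted p = 0.0109), and the EIF2B4 response of -0.48 was not called (limma adjusted p = 0.236). Both targets were already lower in RPFs without DOX. Uninduced shEIF2B1 differed from uninduced shCTRL in EIF2B1 by -0.29 in total RNA and -0.45 in RPFs (limma adjusted p = 0.0289 and 0.000194). Uninduced shEIF2B4 differed in EIF2B4 by -0.42 in RPFs (limma adjusted p = 0.0824) and by -0.25 in total RNA, which was not called (limma adjusted p = 0.129). DDIT3 rose after both knockdowns in both measures, by 0.91 and 1.16 in total RNA after shEIF2B1 and shEIF2B4, and by 1.49 and 1.73 in RPFs. ATF4 rose in RPFs by 1.02 and 0.76 (limma adjusted p = 0.000223 and 0.0690), with responses of 0.19 and 0.09 in total RNA that were not called. PPP1R15A (GADD34), a phosphatase cofactor for eIF2α and a target of this pathway, had responses of 1.08 and 1.41 in RPFs. Its RPFs rose by 0.71 and 1.05 within the lines and fell by 0.37 in shCTRL on DOX (limma adjusted p = 0.0720). Both tables hold 5 of 8 colon epithelial markers, with KRT8 and KRT18 among them, while KRT20, VIL1 and CDX1 were absent. Of 8 markers of blood, vessel and stromal cells CD68 alone was listed, and it was called in no response. In RPFs 0 and 1 of the 5 epithelial markers rose after shEIF2B1 and shEIF2B4, and in total RNA 1 and 2. CDH1 rose in each of those cases, with EPCAM beside it in total RNA after shEIF2B4.

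Among the 10 genes, HERPUD1 was the one called in both knockdowns in total RNA and RPFs. In total RNA 1 of 10 rose after shEIF2B1 (HERPUD1) and 2 of 10 rose after shEIF2B4 (HERPUD1 and DNAJB9), where 2.34% and 3.78% of all 11947 genes were called higher. None was called lower, against 1.13% and 1.62% of genes. In RPFs 2 of 10 had a response called higher after shEIF2B1 (HERPUD1 and SDF2L1) and 1 of 10 a response called lower (HSP90B1), against 12% and 15.3% of 11145 genes. The SDF2L1 response arose without a rise in the shEIF2B1 line, where its mean change was -0.026, beside a fall of 0.38 in shCTRL. After shEIF2B4 1 of 10 rose in RPFs (HERPUD1), against 1.88%, and none fell, against 0.87%. The median response of the 10 genes was 0.20 and 0.10 in total RNA and 0.10 and -0.03 in RPFs, where the medians over all genes lay between -0.02 and 0.00. The 3 protein disulfide isomerases and both lectin chaperones had no called response, corrected for shCTRL, in either knockdown in RNA or RPFs.

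HERPUD1 (ENSG00000051108.15) encodes Herp, an ER membrane protein with a ubiquitin-like domain that organizes ER-associated degradation. GENCODE v29 places it on the plus strand of GRCh38 chromosome 16, from 56932048 to 56944863. In total RNA its 4 log2 values in shEIF2B1 were 8.94, 8.88, 8.93 and 8.66 -DOX and 9.61, 9.55, 9.71 and 9.50 +DOX. In shEIF2B4 they were 9.16, 8.89, 8.58 and 8.74 -DOX and 9.64, 9.78, 9.65 and 9.51 +DOX. All 8 induced knockdown libraries lay above all other 16, and the shCTRL values spanned 8.72 to 9.04. The response was 0.58 after shEIF2B1 (standard error 0.097, limma adjusted p = 0.00203) and 0.64 after shEIF2B4 (standard error 0.12, limma adjusted p = 0.00414). In RPFs the values in shEIF2B1 were 8.73, 8.46, 8.79 and 8.50 -DOX and 9.91, 9.85, 10.08 and 9.60 +DOX. In shEIF2B4 they were 9.22, 8.46, 8.34 and 8.21 -DOX and 9.82, 9.67, 9.69 and 9.38 +DOX, again without overlap. Both RPF responses were positive in 4 of 4 weeks, and they reached 0.98 with shEIF2B1 (limma adjusted p = 5.01e-05) and 0.82 with shEIF2B4 (limma adjusted p = 0.0414). The call in RPFs after shEIF2B4 was lost without replicate 2, 3 or 4, with limma adjusted p = 0.308, 0.209 and 0.295. In shCTRL itself the RPF value was 0.26 higher +DOX, which was not called (limma adjusted p = 0.138).

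HSPA5 (ENSG00000044574.9, chromosome 9 from 125234853 to 125241330, minus strand) was not called in any response corrected for shCTRL. Its total RNA values in shEIF2B1 were 11.76, 11.95, 11.76 and 12.03 -DOX and 12.15, 12.23, 12.26 and 12.11 +DOX. In shEIF2B4 they were 11.76, 11.93, 12.02 and 11.90 -DOX and 12.19, 12.10, 12.22 and 12.18 +DOX. The groups of -DOX and +DOX did not overlap in either knockdown line, and the +DOX values also lay above those of induced shCTRL, which spanned 11.49 to 12.06. The response of 0.34 after shEIF2B1 had a 95% interval from 0.04 to 0.64 (unadjusted p = 0.0299, limma adjusted p = 0.265), and that of 0.30 after shEIF2B4 ran from 0.02 to 0.57 (limma adjusted p = 0.243). A change in HSPA5 mRNA above 0.64 on the log2 scale thus lies outside both intervals, where DDIT3 rose by 0.91 and 1.16. Within each line alone, without subtraction of shCTRL, HSPA5 RNA rose by 0.31 in shEIF2B1 (limma adjusted p = 0.0409) and by 0.27 in shEIF2B4 (limma adjusted p = 0.0365). In RPFs the responses were 0.17 (95% interval -0.12 to 0.47) and 0.25 (-0.10 to 0.60), and the groups overlapped. Within each line alone the RPF changes were 0.24 and 0.31 (limma adjusted p = 0.0552 and 0.0941), both called.

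**Figure D1:**
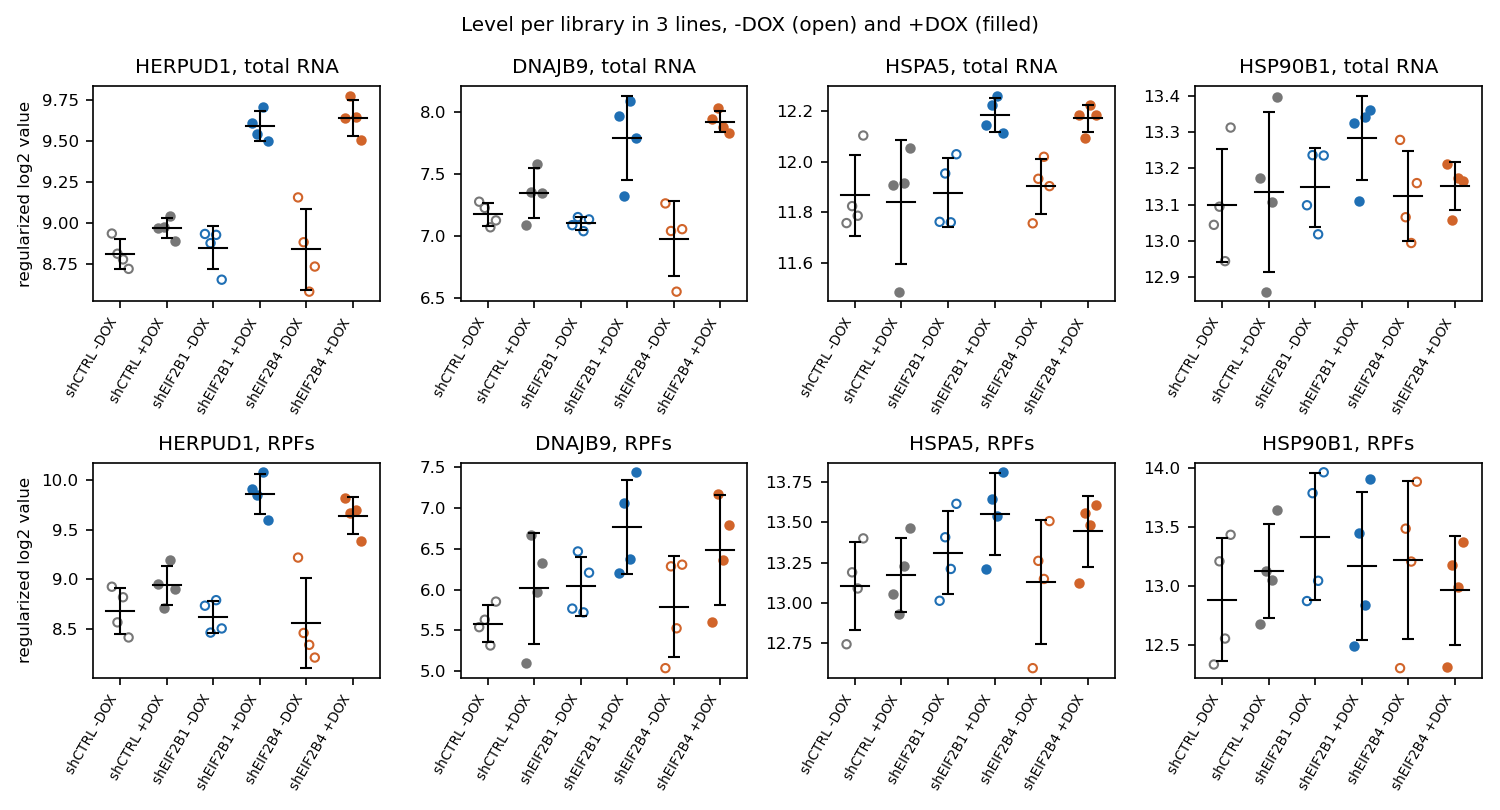
Regularized log2 value of HERPUD1, DNAJB9, HSPA5 and HSP90B1 in each library, total RNA above and RPFs below, open for -DOX and filled for +DOX, with mean and SD over 4 weeks. The axes differ between panels and do not start at 0. Induced HERPUD1 stands apart in both measures, induced HSPA5 in total RNA by a smaller step, and HSP90B1 overlaps throughout.

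DNAJB9 (ERdj4, ENSG00000128590.5, chromosome 7 from 108569568 to 108574850, plus strand), a J-domain partner of HSPA5 and a known target of XBP1, rose in total RNA after shEIF2B4. Its values in shEIF2B4 were 7.26, 7.04, 6.55 and 7.05 -DOX and 7.94, 8.03, 7.88 and 7.83 +DOX. In shEIF2B1 they were 7.09, 7.15, 7.04 and 7.13 -DOX and 7.97, 7.32, 8.09 and 7.79 +DOX. Neither line had overlapping groups, but the second induced shEIF2B1 library, at 7.32, lay within the range of induced shCTRL, 7.09 to 7.58. The response was 0.78 after shEIF2B4 (standard error 0.17, limma adjusted p = 0.0146), or 1.71-fold, and 0.52 after shEIF2B1 (standard error 0.18, limma adjusted p = 0.157), with no difference called between the knockdowns. Without replicate 2 the call after shEIF2B4 was lost (limma adjusted p = 0.120), and the response to shEIF2B1 was called (limma adjusted p = 0.0309), as it also was without the shCTRL correction and against induced shCTRL. In RPFs its value was 0.73 higher +DOX in shEIF2B1, 0.70 higher in shEIF2B4 and 0.43 higher in shCTRL, which left responses of 0.30 and 0.27 with limma adjusted p = 0.396 and 0.634. The change in shCTRL ran from a fall of 0.44 in week 1 to a rise of 1.04 in week 2.

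HSP90B1 (GRP94, ENSG00000166598.16, chromosome 12 from 103930107 to 103953645, plus strand), the Hsp90 chaperone of the ER, moved the other way in RPFs. Its RPF values in shEIF2B1 were 12.87, 13.79, 13.04 and 13.96 -DOX and 12.49, 13.44, 12.84 and 13.90 +DOX. In shCTRL they were 12.33, 13.21, 12.55 and 13.43 -DOX and 12.68, 13.13, 13.05 and 13.64 +DOX. Replicates 1 and 3 lay below replicates 2 and 4 in all 6 groups, so that the groups overlap and the comparison rests on the weekly pairs. In each of 4 weeks the change in shEIF2B1 was below that in shCTRL. The RPF response of HSP90B1 was -0.49 after shEIF2B1 (standard error 0.15, limma adjusted p = 0.0300). After shEIF2B4 it was -0.50 (standard error 0.18, limma adjusted p = 0.177), also below shCTRL in 4 of 4 weeks. Within shEIF2B1 and shEIF2B4 alone the mean changes on DOX were -0.25 and -0.26. In shCTRL itself the value was 0.24 higher +DOX (limma adjusted p = 0.231). Uninduced shEIF2B1 held 0.53 more than uninduced shCTRL (limma adjusted p = 4.89e-05), and induced shEIF2B1 differed from induced shCTRL by 0.047 (limma adjusted p = 0.880), a comparison added after the data were seen. The call was lost without the week as a block (limma adjusted p = 0.680) and without replicate 1 or 3 (limma adjusted p = 0.156 and 0.120). In total RNA its responses were 0.10 and -0.01.

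SDF2L1 (ENSG00000128228.5, chromosome 22 from 21642261 to 21644298, plus strand), a subunit of an HSPA5 co-chaperone complex, had a response of 0.36 in RPFs after shEIF2B1 (standard error 0.13, limma adjusted p = 0.0591). Its RPF values in shEIF2B1 were 8.79, 8.11, 8.74 and 8.43 -DOX and 8.76, 8.23, 8.54 and 8.45 +DOX. In shCTRL they were 9.14, 8.53, 9.35 and 8.69 -DOX and 8.81, 8.09, 8.81 and 8.46 +DOX. The mean change within shEIF2B1 was -0.026, and the groups overlapped, while SDF2L1 fell by 0.38 in shCTRL (limma adjusted p = 0.0481), where 4.62% of genes were called lower. The call in shCTRL was lost without replicate 2, 3 or 4. The call after shEIF2B1 was lost without replicate 1, 2 or 4, with limma adjusted p = 0.148, 0.186 and 0.139. It was also lost without the week as a block, with all 24 libraries in 1 fit and at a threshold of 0.05. Of 12 alternatives 4 kept this call, 6 lost it with the same sign and 2 changed the sign. The difference of induced shEIF2B1 from induced shCTRL was -0.055 (limma adjusted p = 0.826). After shEIF2B4 the response in RPFs was 0.33 (limma adjusted p = 0.428), and in total RNA the responses were 0.21 and 0.08.

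**Figure D2:**
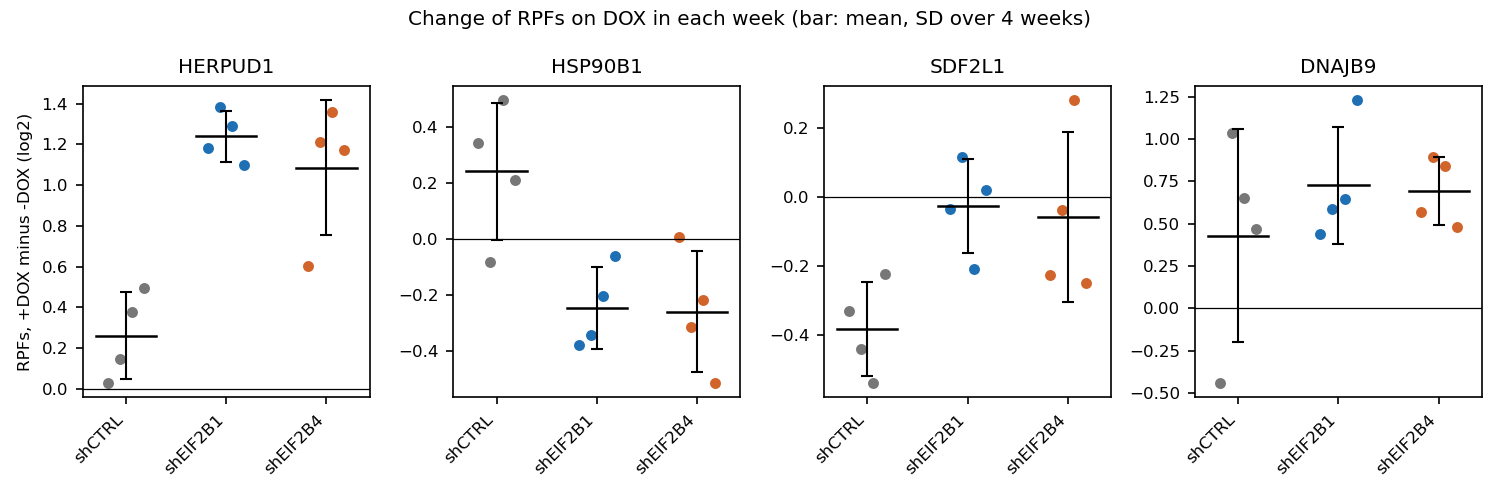
Change of RPFs from -DOX to +DOX in each of 4 weeks (points), with mean and SD, in shCTRL (gray), shEIF2B1 (blue) and shEIF2B4 (orange). HERPUD1 rose in both knockdown lines beyond its change in shCTRL, while for HSP90B1 and SDF2L1 the line shCTRL lies away from 0 and for DNAJB9 all 3 lines lie above 0 on average.

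The lectin chaperones and the disulfide isomerases were not called in any response corrected for shCTRL. CALR (calreticulin, ENSG00000179218.15), which folds glycoproteins in the lumen and binds calcium, had a total RNA response of -0.31 after shEIF2B4 (95% interval -0.56 to -0.06, limma adjusted p = 0.171). Its total RNA values in shEIF2B4 were 12.49, 12.45, 12.68 and 12.56 -DOX and 12.36, 12.24, 12.24 and 12.20 +DOX, with no overlap, and within that line alone CALR fell by 0.29 (limma adjusted p = 0.0312). After shEIF2B1 its response was -0.15 in total RNA. CANX (calnexin, ENSG00000127022.16), the membrane-bound counterpart, had responses between -0.07 and 0.19 over both measures and both knockdowns. PDIA3 (ENSG00000167004.13), the isomerase that works with both lectins, had responses of 0.21 and 0.15 in total RNA and -0.19 and -0.22 in RPFs. PDIA4 (ENSG00000155660.11) reached 0.22 in RPFs after shEIF2B1 (limma adjusted p = 0.177), where its 4 induced values, 12.03 to 12.25, lay above the uninduced ones, 11.76 to 11.98, and 0.00 after shEIF2B4. Within shEIF2B1 alone, without subtraction of shCTRL, total RNA of PDIA3 rose by 0.23 and that of PDIA4 by 0.24 (limma adjusted p = 0.0848 and 0.0781). RPFs of PDIA4 rose there by 0.27 (limma adjusted p = 0.0234), and all 3 changes were called. The responses of PDIA6 (ENSG00000143870.13) stayed between -0.12 and -0.01. The 95% intervals of these 5 genes in total RNA and RPFs reached no higher than 0.55 and no lower than -0.56.

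Counted by overlap alone, 6 of the 10 genes had all 4 +DOX values above all 4 -DOX values in total RNA of shEIF2B1 (HSPA5, PDIA3, PDIA4, CANX, DNAJB9 and HERPUD1), where 13.8% of all genes did so and 14% lay wholly below. In shEIF2B4 3 of 10 lay above (HSPA5, DNAJB9 and HERPUD1) and 1 below (CALR), against 14.6% and 12%. In shCTRL none of the 10 was separated in either direction, against 3.78% and 3.26% of genes. In RPFs 2 of 10 lay above in shEIF2B1 (PDIA4 and HERPUD1) and 1 of 10 in shEIF2B4 (HERPUD1), against 8.2% and 4.59%. These counts do not correct for shCTRL.

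Log2 TE, the RPF value minus the total RNA value of the same lysate, fell for HSP90B1 after shEIF2B1 by 0.59 (standard error 0.15, limma adjusted p = 0.0461), the 1 call among the 10, where 4.13% of 10836 genes were called lower and 2.97% higher. After shEIF2B4 its log2 TE response was -0.49 (limma adjusted p = 0.216). None of the 10 genes was called there by limma, and 0.0923% of all genes were called in either direction. At an unadjusted p under 0.05 there were 2 of the 10 and 17.1% of all genes. Both of the 2, HSP90B1 and DNAJB9, were called without replicate 1. The HSP90B1 call was lost without the week as a block (limma adjusted p = 0.906), with all 24 libraries in 1 fit (0.161), and without replicate 1, 3 or 4 (0.260, 0.207 and 0.137). It was also lost against induced shCTRL, from which induced shEIF2B1 differed by -0.10 (limma adjusted p = 0.943). On DOX the log2 TE of HSP90B1 changed by -0.38 within shEIF2B1 and by 0.21 in shCTRL. PDIA3 had log2 TE responses of -0.41 and -0.37 (limma adjusted p = 0.159 and 0.347), and DNAJB9 of -0.22 and -0.51. HERPUD1 had 0.39 after shEIF2B1 (95% interval 0.10 to 0.69, limma adjusted p = 0.118) and 0.18 after shEIF2B4. The GC content of the coding sequence was 41.3% in HSP90B1, 45.3% in PDIA3 and 38.8% in DNAJB9, the 3 genes with the lowest log2 TE responses to shEIF2B1, and 44.7% in CANX (response -0.16). That of HERPUD1 was 52.5% and that of SDF2L1 65.9%, against a median of 52.1% over 12117 genes. The part of base composition in these TE values was not tested.

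No difference between the 2 knockdowns was called for any of the 10 genes in total RNA, RPFs or TE by limma, on the contrast of the responses over 24 libraries. The differences in RPFs, shEIF2B1 minus shEIF2B4, ran from -0.08 for HSPA5 to 0.22 for PDIA4, with 95% intervals that reached from -0.47 to 0.53. In total RNA they ran from -0.26 for DNAJB9 (95% interval -0.66 to 0.15) to 0.20 for PDIA4 (-0.01 to 0.42, unadjusted p = 0.0653). DNAJB9 had the widest interval of the 10 genes in both measures. Over all genes 0.00897% were called different in RPFs, 0.1% in total RNA and 0% in TE. At an unadjusted p under 0.05 none of the 10 differed in the 3 measures, where 6.4%, 12.8% and 6.14% of all genes did.

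The lines did not start from the same RPF level. In uninduced shEIF2B1 against uninduced shCTRL, 6 of the 10 genes were called in RPFs, where 54.1% of all genes were, 29% higher and 25.1% lower. HSP90B1 (0.53), DNAJB9 (0.46), CANX (0.21), HSPA5 (0.21) and PDIA3 (0.17) were higher, and SDF2L1 (-0.41) was lower. Median centring of the libraries left 5 of the 10 called, 2 higher and 3 lower, against 56.1% of all genes. The balance of higher and lower calls in this uninduced line thus depended on how the libraries were scaled. In uninduced shEIF2B4, where 13.9% of genes were called and the median of all genes was -0.13, none of the 10 was called by limma. At an unadjusted p under 0.05 there were 2 of the 10 and 29.3% of all genes, and without replicate 1 limma called 6 of the 10 and 47.6% of all genes. In total RNA none of the 10 was called in either uninduced line, against 1.4% and 2.32% of genes, and none had an unadjusted p under 0.05, against 13.1% and 15.8%. The added comparison of induced knockdown against induced shCTRL called 3 of the 10 in RPFs and 2 in total RNA for shEIF2B1, against 10.5% and 7.64% of all genes. For shEIF2B4 it called 4 in RPFs and 5 in total RNA, against 29.4% and 30%. There HSPA5 was 0.33 higher in total RNA after shEIF2B4 (limma adjusted p = 0.00860) and 0.38 and 0.27 higher in RPFs after shEIF2B1 and shEIF2B4 (limma adjusted p = 0.0595 and 0.0972). HERPUD1 and DNAJB9 were called higher for both knockdowns in RPFs and total RNA, and CANX for shEIF2B4 in total RNA (0.19). CALR was the 1 gene called lower, for shEIF2B4, by -0.32 in RPFs and -0.21 in total RNA (limma adjusted p = 0.0536 and 0.0599).

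In shCTRL 1 of 10 genes changed on DOX in RPFs (SDF2L1, above), where 9.85% of all genes were called in either direction. None was called in total RNA (4.44% of genes) or in TE (0.388%), where 1 and 2 had an unadjusted p under 0.05, against 20.1% and 15% of all genes. The 6 groups were also ranked by their means for each gene. For HERPUD1 both induced knockdown groups stood first in RPFs and in total RNA, and the gap below them was the 1 pair of neighbors, of 5, whose values did not overlap. HSPA5 had that order and that 1 gap in total RNA, but in RPFs all 5 neighboring pairs overlapped. PDIA4 had 1 gap in total RNA, below induced shEIF2B1. For the other 7 genes all 5 neighboring pairs overlapped in both measures.

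The rest of the ER folding machinery was examined with lists of genes. Of 37 other ER chaperones and foldases measured in total RNA, 4 rose after shEIF2B1 and 5 after shEIF2B4, and none fell, with medians of 0.14 and 0.06. These are 10.8% and 13.5% of the list, against 3.47% and 5.4% of all genes called in either direction. CLGN, a calnexin-like chaperone best known from testis, rose most, by 2.08 and 2.26 (limma adjusted p = 1.22e-06 and 1.07e-08). HYOU1 (GRP170), the nucleotide exchange factor of HSPA5, rose by 0.55 and 0.38 (limma adjusted p = 0.0517 and 0.0990), and the J-domain proteins DNAJC10 (0.62 and 0.84) and DNAJC1 (0.56 and 0.43) rose after both knockdowns. TMX4, a membrane thioredoxin-like protein, rose by 0.81 after shEIF2B4. In RPFs 6 of 36 rose and 4 fell after shEIF2B1, led by CLGN (1.86), ERO1A (-0.70), HYOU1 (0.57) and TMX4 (0.48), which makes 27.8% called against 27.3% of all genes. After shEIF2B4 2 rose, CLGN (1.90) and HYOU1 (0.57), and TXNDC12 fell by 0.52, 8.33% of the list against 2.75% of all genes. The RPF medians, -0.01 and -0.04, were close to those of all genes.

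Genes of ER-associated degradation and of ER entry were counted in the same way. Of 26 degradation genes 4 rose and 2 fell in RPFs after shEIF2B1, 23.1% against 27.3% of all genes. VCP, the ATPase that extracts substrates, fell by 0.67 and SYVN1 (HRD1), the ubiquitin ligase that Herp serves, rose by 0.50, while RNF139 (-0.44) and UBE2J2 (0.41) followed. After shEIF2B4 EDEM3 alone was called, at -0.69, which is 3.85% of the list against 2.75% of all genes. In total RNA of 25 tested none was called after shEIF2B1 by limma (4 at an unadjusted p under 0.05), and SEL1L (0.48) and DERL1 (0.38) rose after shEIF2B4, 8% against 5.4% of all genes. Of 20 genes of the translocon and signal peptidase, SEC61A1 (0.43) and SSR4 (0.35) rose and SEC61G (-0.65) and SEC62 (-0.39) fell in RPFs after shEIF2B1, and SEC61A1 (0.40) and SSR1 (0.37) rose in its total RNA. These are 20% in RPFs and 10% in total RNA, against 27.3% and 3.47% of all genes. After shEIF2B4 none of the 20 was called by limma in RPFs or total RNA, with 3 and 4 at an unadjusted p under 0.05. The share of all genes under that cut is not given for these responses, so the unadjusted counts of both lists cannot be set against it.

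Among 13 UPR sensors and transcription factors, XBP1 was the gene called in both knockdowns. In RPFs it rose by 0.71 and 0.68 (limma adjusted p = 0.00236 and 0.0533), and in total RNA it rose by 0.55 after shEIF2B4 (limma adjusted p = 0.0199). The deposited values are per gene and do not tell spliced from unspliced XBP1. After shEIF2B1 ATF6B (0.71), the sensor IRE1 (ERN1, 0.63) and CREB3L2 (0.58) also rose in RPFs and NFYB (-0.54), a subunit of NF-Y, fell, so that 38.5% of the 13 were called against 27.3% of all genes. After shEIF2B4 XBP1 was the 1 call of 13 in each measure, 7.69% against 2.75% of all genes in RPFs and 5.4% in total RNA. In total RNA none of the 13 was called after shEIF2B1 by limma, with 5 at an unadjusted p under 0.05, a count that again has no share of all genes beside it.

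The ATF4 and CHOP targets had the highest median of these lists in RPFs and total RNA of both knockdowns. Of 25 measured, 15 rose in total RNA after each knockdown and none fell, against 2.34% and 3.78% of all genes, and the median response was 0.53 in both. In RPFs 18 rose and 1 fell after shEIF2B1, against 12% and 15.3% of all genes. After shEIF2B4 15 rose and none fell, against 1.88% and 0.87%, and the RPF median was 0.84 after each knockdown. LAMP3, a lysosomal membrane protein, rose by 2.87 and 2.74 in total RNA, and in RPFs TRIB3, a pseudokinase induced by CHOP, rose by 2.00 and 1.85, and the transcription factor ATF5 by 1.62 and 1.65. HERPUD1 was not on that list, yet its response in total RNA, 0.58 and 0.64, lay above that list's median and above those of the other 9 genes after shEIF2B1. After shEIF2B4 DNAJB9 was higher, at 0.78. The lists were chosen with earlier results of these data known, so the counts are descriptions.

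Across the 24 lysates, with the mean of each week removed, the 10 genes followed HSPA5 to unequal degrees. In total RNA the genes most like HSPA5 among 11946 were SEC61A1, the pore subunit of the translocon (Pearson r = 0.92), HYOU1 (r = 0.90) and ZPR1 (r = 0.90). Of the other members CANX (r = 0.77), HERPUD1 (r = 0.71), PDIA4 (r = 0.70) and HSP90B1 (r = 0.64) followed, while PDIA6 (r = 0.10) and CALR (r = -0.13) were near 0. In RPFs SERPINB1 (r = 0.88), GFPT1 (r = 0.87), an enzyme of the hexosamine pathway, and GARS1 (r = 0.86), the glycyl-tRNA synthetase, were most like HSPA5, and the closest of the 10 genes was DNAJB9 (r = 0.70). HERPUD1 tracked DDIT3 with r = 0.96 in total RNA and r = 0.94 in RPFs, DNAJB9 with r = 0.84 and r = 0.73, and HSPA5 with r = 0.80 and r = 0.71. CALR ran against DDIT3, with r = -0.59 and r = -0.60. The rest lay between -0.19 (PDIA6) and 0.60 (CANX) in total RNA and between -0.26 (HSP90B1) and 0.28 (PDIA4) in RPFs. These values are descriptions over 24 libraries that share lines, treatment and weeks.

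Set against the promoter letters shown above, the calls fell as follows. None of the 5 genes with an ERSE had a response corrected for shCTRL that was called higher. In total RNA HSPA5 rose within each knockdown line alone, by 0.31 and 0.27, and CALR fell within shEIF2B4 by 0.29, all called. Against induced shCTRL, HSPA5 and CANX were called higher and CALR lower in total RNA of shEIF2B4. HSP90B1 with 2 matches had a response called lower in RPFs after shEIF2B1. Of the genes with an ERSE-II HERPUD1 rose there, while SDF2L1 had a response called higher without a rise in the line itself. Of all 16 genes with an ERSE that were tested in total RNA, 1 rose after shEIF2B1 (SERP1, 0.37) and 1 after shEIF2B4 (XBP1, 0.55). Over all 9688 genes with a window in total RNA, 228 rose and 114 fell after shEIF2B1, and 368 rose and 144 fell after shEIF2B4. Of the 14 with an ERSE-II 2 rose in total RNA after each knockdown, HERPUD1 and HYOU1 in both. In RPFs 3 of 14, SDF2L1 among them, had responses called higher and 3 lower after shEIF2B1. There 1056 of 9027 genes with a window were called higher and 1414 lower. SERP1 is named here after its value was seen. Of the 70 genes with a CARE tested in total RNA, 10 rose and 1 fell after shEIF2B1 and 13 rose and 3 fell after shEIF2B4, where 228 and 368 of 9688 genes with a window rose. Among 20 of the ATF4 and CHOP targets with a window, 2 held this motif (CEBPG and CHAC1).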

How the data were processed

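The authors processed the total RNA reads with cutadapt 1.18, aligned them with Bowtie2, quantified them with RSEM against protein-coding transcripts of GENCODE v38 and kept the 1 most expressed for each gene, then counted RPF reads on its coding sequence. Per the labels SAMtools 1.9, R 4.3.1 and DESeq2 were also used. The deposited values are regularized log2 values, which the authors computed for RPFs and for total RNA in turn. They hold no read counts, so the depth of each library is unknown and neither counting intervals nor count models could be used. Shrinkage understates changes of low genes. Log2 TE is the RPF value minus the total RNA value of 1 lysate.

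Groups came from the labels. No library was left out, and 0 other value columns were present. The fits used limma 3.58.1 in R 4.3.3 (lmFit, eBayes with trend) on all genes, with the week, shRNA, DOX and their product as terms, over the 16 libraries of a line and shCTRL. Tests were two-sided, adjusted by Benjamini-Hochberg over all genes and called under 0.1, and intervals are 95%. The labels number the replicates, and the paper states that the repeats were run in separate weeks, so the number was taken as the week and used as a block. After removal of group means 52 of 60 same-number pairs of RPF libraries had a correlation over 0.1, 37 of 60 in total RNA and 55 of 60 in TE. The fit was tested on simulated data.

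The 10 genes and all lists were chosen with earlier results of these data known. Named beside them were the targeted genes, ATF4, DDIT3, PPP1R15A, up to 4 called genes with the largest response per list, and the 3 genes most like HSPA5. Positions and coding sequences are from GENCODE v29 (GRCh38, another release than v38), for 98.87% of genes. Python 3.11.15, pandas 2.3.3 and matplotlib 3.10.9 were used. Alternatives were no block, no trend, the lowest 25% of genes left out, libraries centred on their medians, a threshold of 0.05, all 24 libraries in 1 fit, no shCTRL correction, each replicate left out, and, added later, induced line against induced shCTRL.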

Additional observations from a re-analysis of the deposited data

Results flagged for a closer look

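Each of 120 groups of 4 values (10 genes, 2 measures, 6 groups) was screened for a library far from the other 3 by the gap to its nearest neighbor as a share of the range. Chance flags about 1 in 20 such groups, and 7 were flagged. In RPFs these were PDIA3 in induced shEIF2B4, with 1 library at 12.03 and the nearest other at 12.19, CALR in induced shCTRL (13.37, nearest 13.62) and SDF2L1 in uninduced shEIF2B4 (9.08, nearest 8.36). In total RNA they were HSP90B1 in induced shEIF2B1 (13.11, nearest 13.32), PDIA4 in induced shCTRL (10.97, nearest 11.18), PDIA6 in uninduced shCTRL (11.43, nearest 11.30) and SDF2L1 in uninduced shEIF2B1 (6.23, nearest 6.03). None of the 7 lies in HERPUD1, DNAJB9 or HSPA5. No difference between the knockdowns was called by limma among the 10 genes.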

How the results depend on the processing

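Of 718 values of the 10 genes under other settings, 625 kept their direction and side of the threshold, 26 gained a call, 20 lost one and 47 changed sign, most of these near 0. HERPUD1 kept its call under 12 of 12 alternatives in RPFs after shEIF2B1 and in total RNA after both knockdowns. Depth is unknown, each subunit was depleted with 1 shRNA in 1 pool, and the cause of the shifts below was not tested. SDF2L1 has no total RNA value with the lowest 25% of genes left out.

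Without the replicate block the number of the 10 genes called in RPFs went from 3 to 1 after shEIF2B1, from 1 to 0 after shEIF2B4, from 1 to 0 in shCTRL and from 6 to 0 in uninduced shEIF2B1, and in TE after shEIF2B1 from 1 to 0. The block changed no other count of the 10. Over all genes 50 rather than 3038 were called in RPFs after shEIF2B1 without it, 36 rather than 307 after shEIF2B4, and in total RNA 191 rather than 414 and 349 rather than 645. TE after shEIF2B1 gave 2 calls with each library centred on its median and 0 with all 24 libraries in 1 fit.

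With each replicate left out in turn, calls among the 10 ranged from 1 to 2 in RPFs after shEIF2B1, 0 to 2 after shEIF2B4, 0 to 3 in shCTRL, 3 to 6 in uninduced shEIF2B1 and 0 to 6 in uninduced shEIF2B4. In total RNA they ranged from 1 to 2 after either knockdown and 0 to 2 in shCTRL, and in TE from 0 to 1 after shEIF2B1 and 0 to 2 after shEIF2B4. Values that changed sign ranged, in RPFs, from -0.082 to 0.085 for CANX after shEIF2B1, and after shEIF2B4 from -0.037 to 0.085 for PDIA4, -0.18 to 0.013 for PDIA6 and -0.20 to 0.0039 for CANX. In total RNA they ranged from -0.058 to 0.023 for PDIA6 and -0.0085 to 0.38 for SDF2L1 after shEIF2B1, and after shEIF2B4 from -0.086 to 0.055 for HSP90B1, -0.015 to 0.24 for PDIA3 and -0.032 to 0.20 for SDF2L1. In TE they ranged from -0.087 to 0.086 for CALR after shEIF2B1, and after shEIF2B4 from -0.10 to 0.037 for HSPA5, -0.012 to 0.16 for PDIA4, -0.074 to 0.11 for PDIA6 and -0.043 to 0.38 for SDF2L1.

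Without the shCTRL correction 5 of the 10 were called in RPFs and 5 in total RNA after shEIF2B1 (49.4% and 34.4% of all genes), 3 and 4 after shEIF2B4 (23.8% and 34.4%), and 2 in TE after shEIF2B1 (17.1%). Signs changed in RPFs for CANX (-0.046) and SDF2L1 (-0.026) in shEIF2B1 and SDF2L1 (-0.058) in shEIF2B4, and in total RNA for PDIA6 (0.025) in shEIF2B1 and HSP90B1 (0.028), PDIA4 (0.038) and SDF2L1 (-0.067) in shEIF2B4. In TE they changed for CALR (-0.063), DNAJB9 (0.037) and SDF2L1 (-0.093) in shEIF2B1 and HSPA5 (0.045) in shEIF2B4.

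The comparison of induced lines with induced shCTRL, chosen after seeing the data, called 4 in RPFs and 5 in total RNA for shEIF2B4 (29.4% and 30% of all genes), and 2 in total RNA and 0 in TE for shEIF2B1 (7.64% and 0.388%). Signs changed in RPFs for HSP90B1 (0.047) and SDF2L1 (-0.055) in shEIF2B1 and for PDIA4 (-0.19), CANX (0.12) and SDF2L1 (-0.096) in shEIF2B4, and for HSP90B1 (0.018) in total RNA of shEIF2B4. In TE of shEIF2B1 they changed for HSPA5 (0.033), PDIA4 (-0.073), PDIA6 (0.012), CALR (-0.19), CANX (0.030), DNAJB9 (0.30) and SDF2L1 (-0.13), and in TE of shEIF2B4 for PDIA4 (-0.17), PDIA6 (-0.051), CALR (-0.11) and SDF2L1 (-0.30).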
